A study of Danio rerio with 12 samples.

Results

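The comparison was between zebrafish testes at 30 days post fertilization (dpf) and testes at 25 dpf. Its members were the samples labelled testis at these ages, 3 at 30 dpf and 4 at 25 dpf, which made 7 of the 12 gonad samples, the others being ovaries of the same ages. The study asked what sets early ovaries apart from early testes, and the age series within the testis is one of the contrasts its samples allow. All fish, of both ages, were of the AB strain and carried the transgene Tg(piwil1-egfp-nos3UTR)ihb327Tg, in which a piwil1 promoter drives green fluorescent protein in germ cells. Gonads were removed, their RNA was converted to cDNA and amplified, and the sequenced reads were counted per gene. The labels number the samples but do not say whether they came from separate fish, so that p-values measure the spread between these samples.

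In zebrafish, the juvenile gonad first passes through an ovary-like state with early oocytes. In fish that become males, these oocytes are lost while Sertoli cells, which nurse the germ cells and make Amh, Gsdf and Dmrt1, and Leydig cells, which make androgens, take shape. The juvenile testis therefore holds germ cells at early stages, differentiating somatic cells, blood vessels, connective tissue and immune cells, and a bulk sample measures them together. In such samples fewer cells of a type and less RNA per cell cannot be told apart.

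The total count was 4471588 to 4676396 in the 30 dpf testes and 4654015 to 5331223 in the 25 dpf testes, and the difference was not significant (p = 0.143, two-sided exact permutation test, 3 against 4, which cannot give less than 0.0286). A floor of 3 counts corresponded to 0.528 to 0.651 CPM (counts scaled to library size with TMM factors). Across genes, testes of different ages resembled each other as closely as testes of 25 dpf did among themselves (median Spearman correlation 0.905 over 12 pairs between the ages, 0.923 over 3 pairs within 30 dpf and 0.905 over 6 pairs within 25 dpf, as a description). The tissue label fitted the oocyte markers: 20 tested genes of an oocyte list summed to 566 to 1545 CPM in the 30 dpf testes and 696 to 2211 CPM in the 25 dpf testes, against 7766 to 20266 CPM in the ovaries.

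There were 3 libraries that stood apart. Skeletal muscle genes summed to 571 to 854 CPM in the 30 dpf testes, against 56412 CPM in 25 dpf testis 1 and 525 to 1405 CPM in the other 25 dpf testes. Testis 2 of 25 dpf had 7155 CPM of liver genes, 8783 CPM of exocrine pancreas genes and 567 CPM of intestine genes, the highest value of each among the 7 testes. At 30 dpf, testis 1 had 15.5 CPM of amh, whereas testes 2 and 3 had 530 and 1041 CPM. The comparison was therefore also made without each of these libraries, and these choices beyond leaving out single libraries were made after seeing the data.

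Of 32520 genes, 19292 had enough counts to be tested. Between testes of 30 and 25 dpf, 8 of them rose at 30 dpf with an adjusted p under 0.05 (edgeR quasi-likelihood test, Benjamini-Hochberg over all tested genes), which was 0.0415% of the genes tested, and none fell. At an unadjusted p under 0.05, 1412 genes were higher (7.32%) and 1360 lower (7.05%) at 30 dpf. The counts of list members at this p, given below for the same comparison, are to be read beside these shares. DESeq2 called 251 genes higher (1.52%) and 145 lower (0.881%) at an adjusted p under 0.05. Its percentages are of the 16466 genes to which it gave an adjusted p. The median log2 fold change of all tested genes was -0.04, and the 3 testes of 30 dpf lay above all 4 testes of 25 dpf for 1118 genes (5.8%) and below them for 1164 genes (6.03%). The count of 8 was not stable to single libraries. It became 112 without 30 dpf testis 1, 2 without 30 dpf testis 2, 3 without 25 dpf testis 1 (0.0157%), 6 without 25 dpf testis 2, 3 without 25 dpf testis 3 and 1 without either 25 dpf ovary, and it became 0 without 30 dpf testis 3, without 25 dpf testis 4 or without any 30 dpf ovary.

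The gene with the smallest p was si:ch211-106h4.12 (ENSDARG00000092920), a gene known so far only by a clone-based name. It had 149, 180 and 172 CPM in the 30 dpf testes, against 25.0, 37.8, 51.8 and 45.7 CPM in the 25 dpf testes. Every 30 dpf testis was well above every 25 dpf testis, and the log2 fold change was 2.06 ± 0.24 (SE, adjusted p = 0.0409). Selenop (ENSDARG00000093549) encodes selenoprotein P, the plasma carrier of selenium. It averaged 961 ± 60.2 CPM at 30 dpf (SD, n = 3) and 444 ± 68.3 CPM at 25 dpf (SD, n = 4), with 961, 1021 and 901 CPM against 470, 518, 356 and 430 CPM. The spread within each age was small beside the gap between them, and the log2 fold change was 1.12 ± 0.15 (SE, adjusted p = 0.0467).

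Sesn1 (ENSDARG00000020693) encodes sestrin 1, a stress protein whose mammalian gene responds to FoxO factors. It had 745, 833 and 1100 CPM in the 30 dpf testes and 366, 414, 423 and 390 CPM in the 25 dpf testes, a log2 fold change of 1.16 ± 0.16 (SE, adjusted p = 0.0467). Armc2 (ENSDARG00000022660), an armadillo repeat gene, had 420, 501 and 672 CPM at 30 dpf against 220, 250, 232 and 232 CPM at 25 dpf. These are not independent calls: the genes overlap in the GRCz12tu annotation, and the ratio of armc2 to sesn1 stayed between 0.549 and 0.611 in all 7 testes. Whether the reads of the pair came from sesn1 or armc2 transcripts could not be told apart.

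Arrdc2 (ENSDARG00000020761), an arrestin domain gene, had 201, 203 and 245 CPM at 30 dpf against 82.5, 79.5, 55.6 and 89.9 CPM at 25 dpf (log2 fold change 1.49 ± 0.22 SE). Gpm6a (ENSDARG00000004621), a membrane glycoprotein known from neurons, had 70.9, 97.1 and 88.8 CPM against 35.6, 26.2, 39.3 and 38.2 CPM (1.30 ± 0.18). Itgae.1 (ENSDARG00000098012) encodes an integrin alpha chain whose mammalian relative marks lymphocytes in epithelia, and had 73.1, 76.3 and 114 CPM against 23.0, 32.7, 28.8 and 28.5 CPM (1.63 ± 0.23). In each of these genes the ages did not overlap, and the adjusted p was 0.0467. The eighth gene, si:ch211-217k17.10 (ENSDARG00000079345), was low and uneven, with 5.82, 36.5 and 7.67 CPM at 30 dpf against 0.869, 0, 0 and 0.897 CPM at 25 dpf. For each of the last pair 1 neighbour in the gene order of GRCz12tu, picked after its values were seen, was also higher without being called. Itgae.2 had 7.43, 10.9 and 5.65 CPM against 1.52, 3.17, 2.65 and 3.95 CPM. Si:ch211-217k17.11 had 5.22, 1.65 and 3.23 CPM against 0, 0, 0.757 and 1.26 CPM, near the floor at 25 dpf. The other genes nearby had log2 fold changes of -0.41 to 0.44 around itgae.1 and of -0.13 to 0.43 around si:ch211-217k17.10. Higher neighbours that were not called also lay near other called genes. Near si:ch211-106h4.12 was mrc1b, described below (log2 fold change 1.89), and the rest ranged from -7.97 to 1.55. Neighbours ranged from -0.22 to 0.96 (ghra) around selenop and from -0.24 to 1.18 (si:ch211-1a19.3) around arrdc2. Around sesn1 and armc2 they ranged from -0.62 to 0.78.

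**Figure D1:**
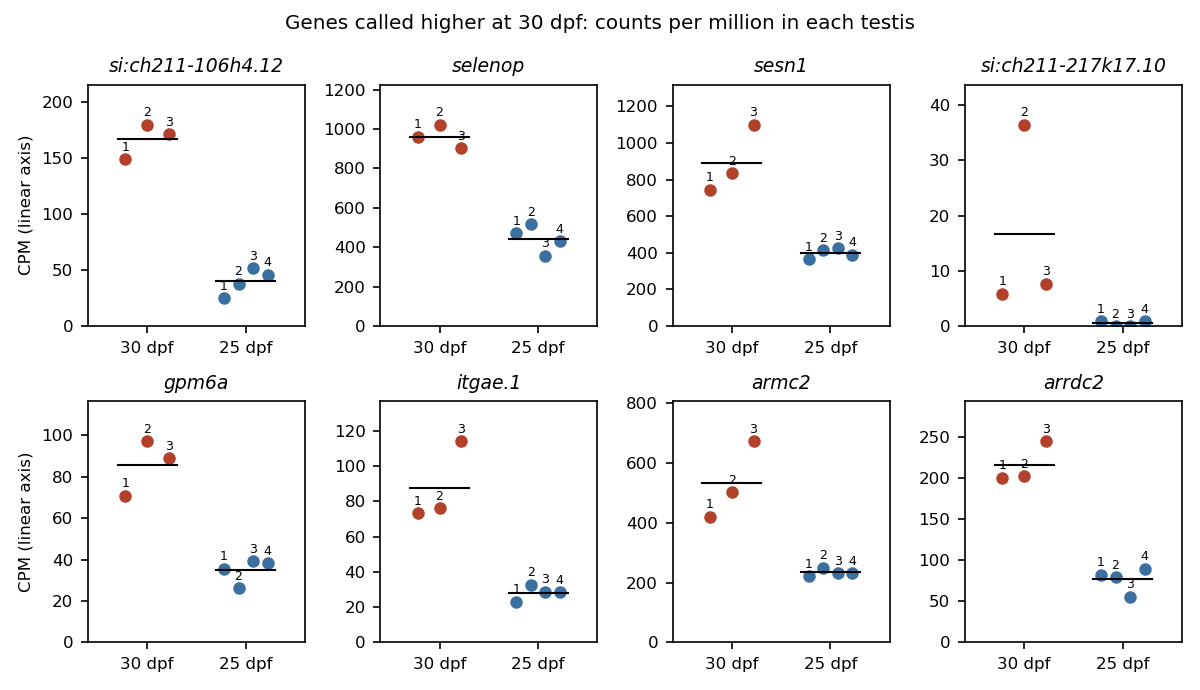
CPM (linear axes) of the 8 genes called higher at 30 dpf, with 1 panel for each gene. Each point is a testis labelled with its number, 30 dpf on the left and 25 dpf on the right, and the black line is the mean of the age; in every panel the 3 testes of 30 dpf lie above the 4 of 25 dpf.

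The age difference of these genes was compared with that in ovaries of 30 and 25 dpf, which share no sample with it. The test of the difference between the age changes called no gene, with a smallest adjusted p of 0.0573 for si:ch211-106h4.12, and gave 2101 genes at an unadjusted p under 0.05 (10.9%), while DESeq2 called 102. In ovaries alone 1 gene was called between the ages (0.00518%), which fell, and 2374 had an unadjusted p under 0.05 (12.3%). Si:ch211-106h4.12 had a log2 fold change of 2.06 in testes and -1.06 in ovaries, where it was at 13.7, 17.5 and 18.1 CPM at 30 dpf and at 41.5 and 27.3 CPM at 25 dpf. Gpm6a likewise had 1.30 in testes and -0.70 in ovaries (unadjusted p of the difference 1.6e-05, adjusted p = 0.12). Itgae.1 and arrdc2 had values of the same sign in both organs, 1.63 and 1.37 for itgae.1 and 1.49 and 1.17 for arrdc2, and their differences had unadjusted p of 0.49 and 0.37. For none of the 8 genes was the age change shown to be particular to the testis.

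Among genes that separated the ages without passing the threshold, several with known roles were near it. Mrc1b, a mannose receptor gene expressed in fish by macrophages and by lymphatic and venous endothelium, had 72.5, 101 and 130 CPM at 30 dpf against 25.4, 18.5, 31.8 and 33.7 CPM at 25 dpf (log2 fold change 1.89 ± 0.31 SE, adjusted p = 0.0771). Srgn, the serglycin core protein of secretory granules, had 70.3, 144 and 179 CPM against 34.7, 38.7, 40.9 and 49.2 CPM (1.68, adjusted p = 0.0587). Ak4, a mitochondrial adenylate kinase, had 161, 158 and 252 CPM against 59.3, 74.6, 91.2 and 73.4 CPM (1.35). In these genes the lowest 30 dpf testis was still above the highest 25 dpf testis, and DESeq2 called them higher. Cyb5r3, a cytochrome b5 reductase, had 215, 341 and 247 CPM against 87.3, 68.8, 103 and 140 CPM (1.42, adjusted p = 0.0752).

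On the lower side, samd1a, a chromatin-binding gene, was even within each age, with 23.1, 24.3 and 25.0 CPM at 30 dpf against 40.8, 50.9, 39.7 and 47.0 CPM at 25 dpf (log2 fold change -0.89 ± 0.15 SE, adjusted p = 0.0845). Ncapd2, a condensin subunit, had 113, 94.4 and 83.6 CPM against 187, 162, 172 and 151 CPM, and kif20a, a kinesin of cytokinesis, had 62.6, 73.4 and 71.0 CPM against 128, 120, 125 and 101 CPM (-0.79 and -0.78, adjusted p = 0.094 and 0.101). Kif20a went the other way in ovaries, with 0.90, and the difference between the organs had an unadjusted p of 1.8e-05 (adjusted p = 0.12). Cyp1a1, a cytochrome P450 induced by aryl hydrocarbons, was close to the floor at 30 dpf with 1.00, 1.24 and 1.01 CPM, against 3.69, 24.3, 11.2 and 11.7 CPM at 25 dpf (-3.53). Hbae3, an embryonic globin gene, had 0.402, 3.71 and 1.61 CPM against 24.1, 29.2, 36.1 and 37.0 CPM (-4.04, adjusted p = 0.0932). The ages were fully apart in each of these genes. None was called by edgeR, and DESeq2 called all 5 lower, with adjusted p of 5.63e-05 to 0.00434.

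Sertoli cell genes differed widely among the testes of 30 dpf. Amh (ENSDARG00000014357), anti-Müllerian hormone, was 15.5, 530 and 1041 CPM in the 30 dpf testes against 14.5, 36.4, 13.4 and 9.15 CPM in the 25 dpf testes. Testes 2 and 3 of 30 dpf were far above every 25 dpf testis, and testis 1 lay among them, so that the log2 fold change of 4.84 ± 0.96 (SE) had an adjusted p of 0.101. Gsdf, a secreted factor of the gonadal soma, had 1244, 3962 and 5187 CPM against 847, 1327, 313 and 678 CPM (2.13 ± 0.48, adjusted p = 0.125). Dmrt1, a transcription factor required for testis development, had 17.3, 121 and 163 CPM against 34.1, 38.9, 22.3 and 25.7 CPM (1.73 ± 0.53, adjusted p = 0.19), with testis 1 below the lowest testis of 25 dpf. Testis 1 was singled out by its low amh, so the values without it are no independent evidence for amh or for genes that vary with it. Without 30 dpf testis 1, all 3 genes were called higher, with log2 fold changes of 5.41, 2.53 and 2.23 and adjusted p of 0.00486, 0.0256 and 0.00773, and DESeq2 on all gonads called them too (adjusted p of 0.000384, 0.00221 and 0.0485).

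Not all genes of the list shared this direction. Nr0b1, a nuclear receptor known as dax1, had 92.4, 48.4 and 51.9 CPM at 30 dpf against 114, 229, 94.0 and 122 CPM at 25 dpf (log2 fold change -1.12, adjusted p = 0.173), below in every testis, and DESeq2 called it lower (adjusted p = 0.0442). Igf3, the insulin-like growth factor of fish gonads, had 129, 22.1 and 33.1 CPM against 129, 280, 78.9 and 134 CPM (-1.34), and fshr, the receptor of follicle-stimulating hormone, was near the floor at 30 dpf. Of 9 tested genes of the list, 3 were higher and 3 lower at an unadjusted p under 0.05, and their median was 0.11, against -0.04 for all tested genes. Inhbb (ENSDARG00000040777), an activin subunit gene, had 44.0, 175 and 229 CPM against 57.1, 104, 22.3 and 37.3 CPM and placed the 30 dpf testes in the same order as amh.

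Among genes of steroid synthesis, star, cyp11c1 and hsd3b1 were highest in 30 dpf testes 2 and 3. Star, which moves cholesterol into mitochondria, had 14.3, 176 and 537 CPM at 30 dpf against 5.86, 36.6, 1.70 and 3.23 CPM at 25 dpf (log2 fold change 4.34 ± 1.1 SE, adjusted p = 0.147). Cyp11c1, an enzyme of 11-ketotestosterone synthesis, had 56.4, 191 and 362 CPM against 49.9, 48.4, 0.946 and 12.9 CPM (2.86 ± 0.86, adjusted p = 0.185), and hsd3b1 had 48.8, 118 and 307 CPM against 32.6, 46.1, 46.9 and 36.8 CPM (1.96 ± 0.56, adjusted p = 0.177). Testis 3 was the highest in all 3 genes and testis 1 was close to the 25 dpf range. Cyp17a1, needed for androgens, overlapped between the ages with 220, 417 and 933 CPM against 317, 376, 171 and 138 CPM, and insl3, a Leydig cell hormone, was at 0.602, 0.824 and 3.63 CPM against 1.95, 0.704, 1.13 and 1.79 CPM. Of 14 tested genes of the list 4 were higher and 1 lower at an unadjusted p under 0.05, with a median of 0.29. Without 30 dpf testis 1 none was called (star 4.90, adjusted p = 0.0543; hsd3b1 2.39, adjusted p = 0.0733), while DESeq2 on all gonads called star and hsd3b1.

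Some genes known from the ovarian follicle and from female germ cells had low values in 30 dpf testes 2 and 3. Cyp19a1, the aromatase that makes oestrogen, had 30.1, 2.47 and 1.01 CPM at 30 dpf against 20.0, 12.8, 35.4 and 37.5 CPM at 25 dpf. Foxl2 (ENSDARG00000068417), a transcription factor of granulosa cells, had 39.4, 8.86 and 6.46 CPM against 96, 122, 25.3 and 92.6 CPM (log2 fold change -2.20 ± 0.75 SE, adjusted p = 0.228), and foxl2l, known from female germ cell progenitors, had 185, 53.8 and 19.8 CPM against 304, 251, 215 and 166 CPM (-1.44, adjusted p = 0.322). In each of the 3 genes testes 2 and 3 were below every 25 dpf testis, and testis 1 was inside the 25 dpf range. A further foxl2 gene (ENSDARG00000042180) had 62.6, 2.27 and 2.22 CPM against 60.4, 115, 47.9 and 66.2 CPM, but it was also under 0.6 CPM in 3 of the 5 ovaries. Of 7 tested follicle genes 1 was lower at an unadjusted p under 0.05 and none higher, with a median of -0.57. Without 30 dpf testis 1 there were 4 lower, where 6.52% of all tested genes were lower. None of them was called (cyp19a1 -3.91, adjusted p = 0.0978). DESeq2 on all gonads called foxl2 (ENSDARG00000068417) lower (adjusted p = 0.0485). The activin subunit genes inhbaa and inhbab of the follicle list were left out when symbols were matched. A gene with their shared symbol, inhba (ENSDARG00000024759), went the other way. DESeq2 called it higher (log2 fold change 2.64, adjusted p = 0.0485), and edgeR did not call it.

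Axin2 and lef1, which are both activated by Wnt signalling and are used as its readouts, also parted the 30 dpf testes. Both genes were chosen after their values were seen. Axin2 had 129, 27.0 and 25.0 CPM in the 30 dpf testes, whereas it was even in the 25 dpf testes, with 120, 127, 114 and 110 CPM. Lef1 had 35.9, 8.04 and 7.87 CPM at 30 dpf against 33.4, 39.6, 25.0 and 47.2 CPM at 25 dpf. With all 3 testes the log2 fold changes were -0.96 ± 0.48 and -1.07 ± 0.49 (SE, adjusted p = 0.39 and 0.351), and without testis 1 they were -2.18 and -2.19 (adjusted p = 0.00496 and 0.0248). Nkd1 and axin1, both of which restrain the pathway, had 49.4, 25.1 and 21.8 CPM against 52.1, 40.7, 67.9 and 49.7 CPM and 85.1, 54.2 and 53.5 CPM against 97.5, 124, 87.0 and 79.5 CPM. Sfrp5, a secreted Wnt inhibitor, went the other way, with 15.9, 107 and 116 CPM against 8.25, 0.176, 15.1 and 19.6 CPM. Over 18 tested Wnt genes the median was -0.32, with 1 gene higher and 2 lower at an unadjusted p under 0.05, and 1 and 6 without 30 dpf testis 1, where 6.51% of all tested genes were higher and 6.52% lower.

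**Figure D2:**
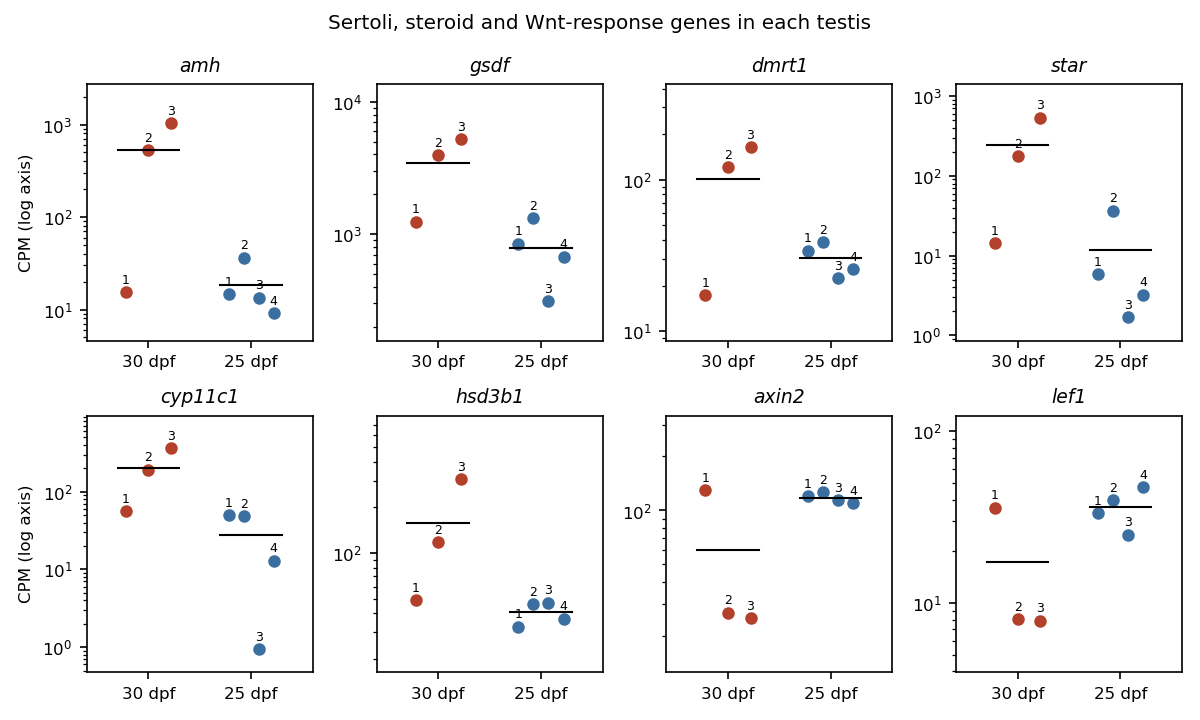
CPM (log axes) of amh, gsdf, dmrt1, star, cyp11c1, hsd3b1, axin2 and lef1, 1 panel for each gene. Axin2 and lef1 were chosen after their values were seen. Each point is a testis labelled with its number, 30 dpf left and 25 dpf right, with the mean of each age as a black line; 30 dpf testis 1 sits at or near the 25 dpf points in every panel, away from 30 dpf testes 2 and 3.

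Leaving out 30 dpf testis 1 raised the number of calls. With 2 testes of 30 dpf against 4 of 25 dpf, 81 genes were called higher (0.423% of 19128 tested) and 31 lower (0.162%), including all 8 of the genes called with every testis. Testis 1 took no part in the fit that called these 112 genes. It was, however, singled out by its low amh, and amh is among them. Genes called from testes 2 and 3 alone also tend to place a testis left out nearer to 25 dpf. Its place in them was therefore read as a description only. Positions were taken on log2(CPM + 1), with 1 at the mean of 30 dpf testes 2 and 3 and 0 at the mean of the 25 dpf testes. The median position of testis 1 was 0.13 over the 112 genes, 0.17 over those higher and 0.04 over those lower. It lay within the range of the 25 dpf testes or beyond its far side in 63 genes, 41 of the 81 higher and 22 of the 31 lower, lay between the ages in 43 and reached testes 2 and 3 in 6. Selenop, ak4 and mfsd8l2 were among the 6. In the 8 genes called with every testis its position was 0.62 to 1.00. Testis 1 took part in choosing those 8 genes, which favours a high position there.

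**Figure D3:**
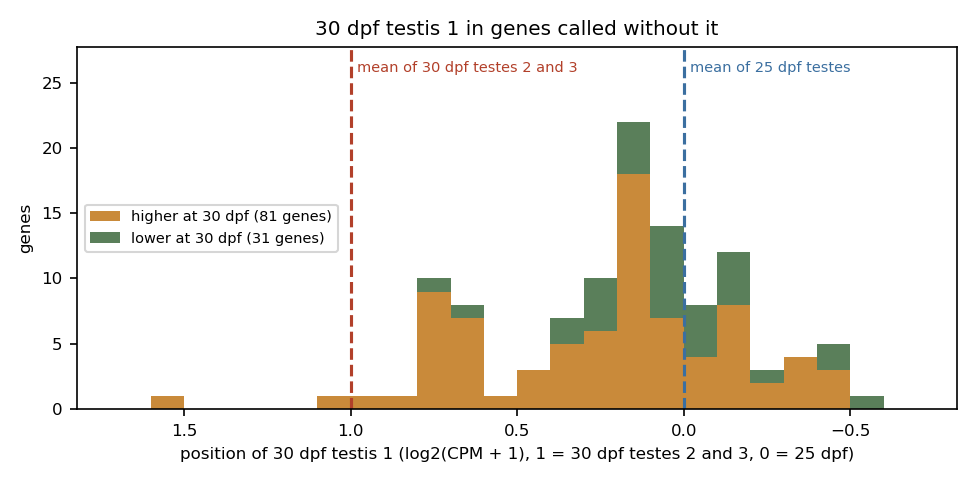
Place of 30 dpf testis 1 in the 112 genes called without it, 81 higher and 31 lower at 30 dpf (stacked). The horizontal axis is a scale of log2(CPM + 1). It runs from 1, the mean of 30 dpf testes 2 and 3, on the left to 0, the mean of the 25 dpf testes, on the right. The vertical axis counts genes. Most genes lie near 0, with a median of 0.13.

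Some genes of this set, chosen after their values were seen, illustrate it. Glul (ENSDARG00000099776), glutamine synthetase, had 147, 901 and 973 CPM in the 30 dpf testes against 97.3, 161, 85.7 and 101 CPM in the 25 dpf testes (log2 fold change without testis 1 3.07, adjusted p = 0.00375). Klf9, a transcription factor induced by steroid and thyroid hormones in vertebrates, had 1.2, 31.3 and 47.6 CPM against 1.95, 3.17, 1.89 and 3.77 CPM. Tsc22d3, known in mammals as a glucocorticoid-induced gene, gpx3, a secreted glutathione peroxidase, and lcat, which esterifies cholesterol in plasma, were in the same set. Among those lower were transcription factors known from the early gonad of mammals: lhx9 had 119, 13.0 and 10.1 CPM, against 66.6 to 135 CPM at 25 dpf, and emx2 had 205, 54.0 and 34.9 CPM, against 109 to 205 CPM at 25 dpf. Hsd17b1, which makes oestradiol from oestrone, had 24.5, 1.65 and 0.404 CPM, against 23.6 to 55.4 CPM at 25 dpf, and fgfr4, a fibroblast growth factor receptor gene, had 289, 33.4 and 39.4 CPM, against 164 to 246 CPM. In each of these 4 genes testis 1 had the level of the younger testes or more, and wnt9b, irx3 (ENSDARG00000101076), irx5 and pax2 (ENSDARG00000028148) were called lower with them.

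Most germ cell genes overlapped between the ages. Ddx4, the vasa helicase of germ cells, had 285, 320 and 408 CPM at 30 dpf against 336, 345, 277 and 329 CPM at 25 dpf. The oocyte genes zar1 and zp3b varied widely within each age, with 46.2, 226 and 49.9 CPM against 48.2, 31.9, 161 and 393 CPM for zar1 and 36.5, 219 and 26.6 CPM against 61.7, 30.6, 225 and 349 CPM for zp3b. Testis 2 of 30 dpf and testes 3 and 4 of 25 dpf held the most, in both genes. Zar1 was chosen after its values were seen. None of the 20 tested oocyte genes separated the ages (5.8% of all tested genes lay above and 6.03% below in every 30 dpf testis). At an unadjusted p under 0.05, 2 were lower and none higher, and their median was -0.20. Of these 2, org, an oocyte gene, had 86.9, 131 and 93.1 CPM against 147, 117, 129 and 209 CPM, and the other was foxl2l.

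In the stem cell and spermatogonium list, 3 of 15 tested genes were higher at an unadjusted p under 0.05 and none lower, with a list median of -0.20. Kitlga, a ligand of the Kit receptor, had 28.1, 20.4 and 15.7 CPM at 30 dpf against 15.2, 6.34, 7.38 and 8.97 CPM at 25 dpf, every 30 dpf testis being above (log2 fold change 1.18, adjusted p = 0.186). Gfra1a, a receptor gene of undifferentiated spermatogonia, had 11.4, 16.3 and 13.9 CPM against 1.09, 3.87, 11.0 and 2.15 CPM (1.61, adjusted p = 0.236). Their separation was narrow, and neither was called by edgeR or DESeq2. Of 17 tested piRNA genes 1 was lower in every testis and none was above (6.03% and 5.8% of all tested genes were). At an unadjusted p under 0.05, 1 was higher and 1 lower, and the list median was -0.10. The higher gene was tdrd1, which among the testes was high in 30 dpf testis 1 only. It had 363, 2.89 and 3.23 CPM against 3.26, 5.81, 3.22 and 2.87 CPM. The gene lower in every testis was rnf17, a tudor domain gene (42.8, 39.2 and 54.7 CPM against 62.1, 67.4, 55.8 and 58.3 CPM, -0.42, adjusted p = 0.27). Pld6, a mitochondrial protein of piRNA maturation, overlapped (145, 163 and 190 CPM against 241, 196, 163 and 166 CPM). Of 30 tested meiosis genes and 18 tested genes of spermatids and sperm, 1 in each list was lower at an unadjusted p under 0.05 and none higher, with medians of -0.17 and -0.43.

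Cell cycle genes were lower together at 30 dpf. Of 33 tested genes, 32 had a negative log2 fold change, 12 were lower in every 30 dpf testis than in any 25 dpf testis (6.03% of all tested genes were), 11 were lower at an unadjusted p under 0.05 and none was higher, and their median was -0.43 against -0.04 for all tested genes. None was called by edgeR, and DESeq2 called 4 lower. Their summed level was 5356, 4973 and 5171 CPM at 30 dpf against 6536, 7894, 7664 and 6044 CPM at 25 dpf, so that the ages did not overlap. Pcna, the sliding clamp of DNA replication, had 921, 848 and 934 CPM against 1324, 1400, 1406 and 1163 CPM (log2 fold change -0.55 ± 0.12 SE, adjusted p = 0.113). Mad2l1, of the spindle checkpoint, had 101, 84.9 and 82.4 CPM against 153, 139, 141 and 168 CPM (-0.75 ± 0.15, adjusted p = 0.102), and mki67, a marker of cycling cells, had 126, 132 and 106 CPM against 154, 192, 214 and 150 CPM (-0.55). Here testis 1 of 30 dpf stood with testes 2 and 3.

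The direction was the same in the reduced comparisons, with a cell cycle median of -0.38 without 30 dpf testis 1 and -0.50 without 25 dpf testes 1 and 2, with 10 and 8 genes lower and none higher at an unadjusted p under 0.05. Of all tested genes, 6.52% and 6.19% were lower in these comparisons. Top2a, a topoisomerase of dividing cells, had 252, 216 and 213 CPM at 30 dpf against 344, 379, 337 and 277 CPM at 25 dpf, and kif11, a spindle motor, had 88.9, 89.0 and 66.2 CPM against 155, 129, 137 and 123 CPM. In ovaries the median of the same genes was 0.19. For kif11 the log2 fold change was -0.74 in testes against 0.74 in ovaries (unadjusted p of the difference 0.00034, adjusted p = 0.32), and for ccna2, a cyclin of S phase and mitosis, it was -0.67 against 1.22 (unadjusted p = 0.00082), neither of which passed the correction.

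Most leukocyte genes were higher at 30 dpf. Of 21 tested, 15 had a positive log2 fold change and 6 a negative one. Every 30 dpf testis was above in 7 genes (5.8% of all tested genes were) and below in 1. At an unadjusted p under 0.05, 7 were higher and 1 lower, and the median was 0.51. None was called by edgeR, and DESeq2 called marco. Ptprc, which encodes the pan-leukocyte protein CD45, had 39.6, 34.2 and 35.7 CPM at 30 dpf against 11.1, 15.5, 16.5 and 16.3 CPM at 25 dpf (log2 fold change 1.30 ± 0.41 SE, adjusted p = 0.202). Marco, a macrophage scavenger receptor, had 68.3, 47.0 and 70.0 CPM against 33.7, 26.6, 20.8 and 24.6 CPM (1.23 ± 0.24, adjusted p = 0.102), and cd74a, the invariant chain of antigen presentation, had 757, 478 and 661 CPM against 343, 302, 201 and 459 CPM (0.95, adjusted p = 0.18). The gene below in every testis was rag2, the recombinase of lymphocyte precursors, with 3.01, 3.92 and 4.64 CPM against 6.51, 6.34, 7 and 6.1 CPM. The list summed to 2147, 1489 and 1977 CPM against 1122, 1168, 930 and 1320 CPM, and its median stayed at 0.48 without 30 dpf testis 1 and 0.49 without 25 dpf testes 1 and 2.

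Of 7 tested chemokine genes, 3 were higher in every 30 dpf testis (5.8% of all tested genes were), and DESeq2 called all 3. Cxcl12, the ligand that guides germ cells and leukocytes, had 144, 272 and 181 CPM at 30 dpf against 40.0, 52.8, 116 and 78.8 CPM at 25 dpf (log2 fold change 1.47 ± 0.35 SE, adjusted p = 0.133). Its receptor cxcr4 (ENSDARG00000041959) had 83.1, 124 and 232 CPM against 75.6, 73.4, 72.6 and 47.4 CPM (1.12, adjusted p = 0.17), and ccr9 (ENSDARG00000055186) had 28.1, 72.8 and 35.5 CPM against 17.2, 7.22, 18.7 and 13.8 CPM (1.68, adjusted p = 0.138). Ligand and receptor were both above, although by little for cxcr4 in testis 1. Ackr3 (ENSDARG00000058179), the scavenger receptor of cxcl12, had 344, 139 and 110 CPM against 226, 263, 261 and 246 CPM, with 30 dpf testis 1 the highest of the 7 testes. With all testes no gene of the list was lower at an unadjusted p under 0.05. Without 30 dpf testis 1, which was singled out by its low amh, ackr3 was called lower (-1.0, adjusted p = 0.0466).

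In the lists of connective tissue, vessels and fat no gene was called by edgeR, and DESeq2 called cldn5 (ENSDARG00000014059) and lpl (ENSDARG00000087697) higher. Of 27 tested extracellular matrix and fibroblast genes 7 were higher and none lower at an unadjusted p under 0.05, with a median of 0.35, and the list summed to 14469, 11529 and 13306 CPM at 30 dpf against 8750, 9019, 10837 and 9360 CPM at 25 dpf. Col1a2, a collagen I chain, had 2585, 2608 and 2884 CPM against 1698, 1277, 2358 and 1903 CPM (log2 fold change 0.57 ± 0.20 SE, adjusted p = 0.233). The difference was smaller without 25 dpf testes 1 and 2, with 1 gene higher, 1 lower and a median of 0.24, where 5.97% of all tested genes were higher and 6.19% lower. Of 18 tested endothelial genes 5 were higher and none lower at an unadjusted p under 0.05, against 7.32% and 7.05% of all tested genes. Their median was 0.34, and their summed levels overlapped between the ages. Cldn5 (ENSDARG00000014059), a tight junction gene, had 57.2, 103 and 80.3 CPM against 24.8, 14.4, 35.9 and 38.9 CPM (1.49 ± 0.30, adjusted p = 0.102), whereas the further cldn5 gene (ENSDARG00000043716) was lower in every testis, with 66.9, 59 and 69.4 CPM against 115, 102, 78.1 and 92.6 CPM.

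Of 7 tested adipocyte genes 3 were above in every 30 dpf testis (5.8% of all tested genes were). A positive log2 fold change was found in 5 and a negative one in 2. Both copies of lpl, the lipase that releases fatty acids from lipoproteins, were among the 3. The first (ENSDARG00000087697) had 957, 1168 and 1466 CPM at 30 dpf against 263, 48.6, 363 and 610 CPM at 25 dpf (log2 fold change 1.90 ± 0.56 SE, adjusted p = 0.18), and the other (ENSDARG00000098720) had 255, 210 and 143 CPM against 35.0, 3.87, 105 and 80.7 CPM (1.85). Their list median was 0.90, with 2 genes higher and none lower at an unadjusted p under 0.05, and it was 0.56 over 6 genes without 25 dpf testes 1 and 2. The list summed to 1834, 2321 and 2308 CPM against 653, 380, 1283 and 1293.5 CPM, and at 30 dpf most of the sum was lpl. Alpha globin hbaa1 was uneven at 30 dpf, with 63.8, 950 and 489 CPM against 30.6, 117, 51.3 and 83.1 CPM, and the 9 tested red blood cell genes summed to 157, 1664 and 711 CPM against 153, 259, 217 and 253 CPM. Testes 2 and 3, in which amh was high, were also those with the most red blood cell RNA, and the part of blood in their other values was not tested.

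**Figure D4:**
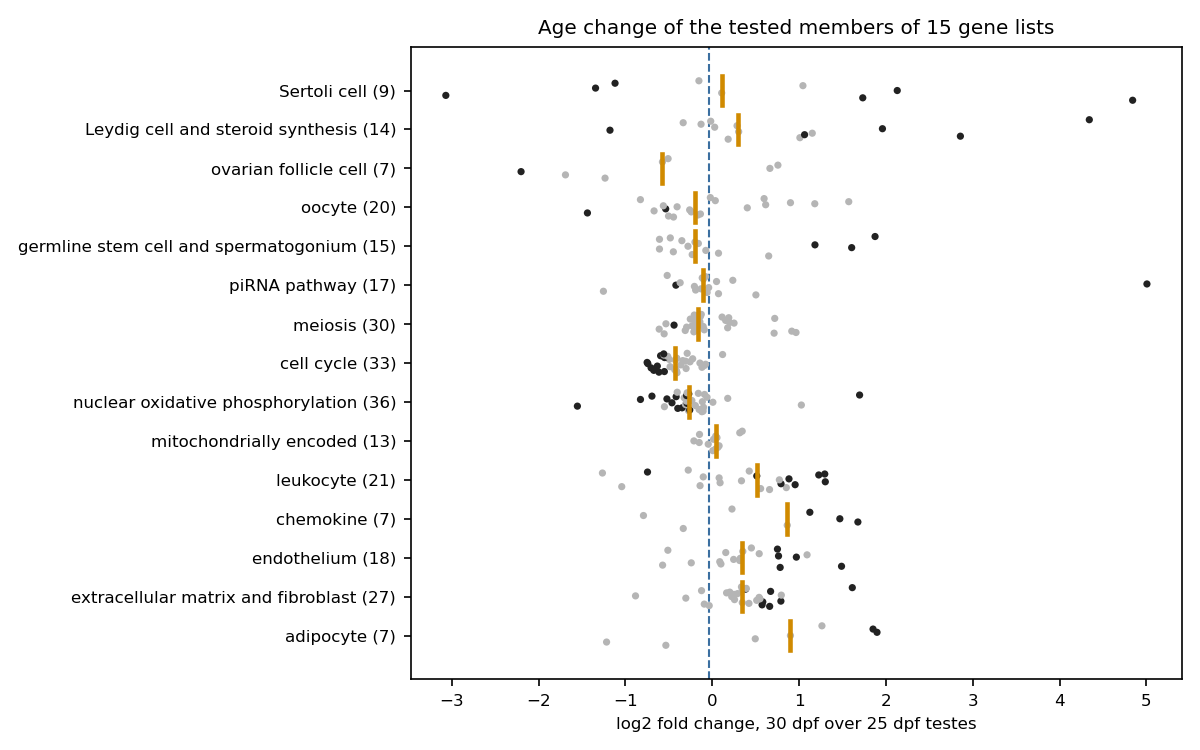
Log2 fold change, 30 dpf over 25 dpf testes, of the tested genes of 15 lists, with the number tested beside each name. Points are genes (black at an unadjusted p under 0.05, grey otherwise), the orange bar is the list median and the dashed blue line is the median of all tested genes, -0.04; cell cycle genes lie almost wholly to the negative side, with a median of -0.43, and leukocyte genes mostly to the positive side, with 0.51.

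Nuclear genes of oxidative phosphorylation were lower in part. Of 36 tested, 14 were lower in every 30 dpf testis and 1 was above (6.03% and 5.8% of all tested genes were). At an unadjusted p under 0.05, 12 were lower and 1 higher, against 7.05% and 7.32% of all tested genes. The median was -0.27. Ndufs8, of complex I, had 75.7, 70.5 and 69.6 CPM at 30 dpf against 121, 106, 96.1 and 90.4 CPM at 25 dpf (log2 fold change -0.52 ± 0.15 SE, adjusted p = 0.178), and sdhb, of complex II, had 266, 254 and 232 CPM against 382, 326, 300 and 332 CPM. These counts moved with 25 dpf testis 1, the library rich in muscle RNA: without it 3 genes were higher and 5 lower, with a median of -0.19, where 6.74% of all tested genes were higher and 6.29% lower. The 13 genes encoded by the mitochondrial genome had a median of 0.04 and none at an unadjusted p under 0.05. In ovaries the nuclear genes had a median of -0.37.

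Of 20 tested genes of mitochondrial dynamics and mitophagy the median was -0.04. In every 30 dpf testis 2 of them were lower and 1 was above (6.03% and 5.8% of all tested genes were). At an unadjusted p under 0.05, 2 were higher and 1 lower, against 7.32% and 7.05% of all tested genes. Dnm1l, the dynamin of mitochondrial fission, was slightly lower in every testis (174, 173 and 179 CPM at 30 dpf against 202, 199, 219 and 198 CPM at 25 dpf, log2 fold change -0.22, adjusted p = 0.381). Map1lc3b, an autophagosome protein, was above in every testis (254, 240 and 216 CPM against 206, 183, 134 and 192 CPM, 0.40, adjusted p = 0.453), and sqstm1, the autophagy receptor p62, overlapped with 112, 174 and 115 CPM against 68.4, 43.3, 39.7 and 123 CPM (0.97, adjusted p = 0.233). None of these genes was called.

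Among single genes of cell survival and cell cycle arrest, mcl1b, a survival protein of the Bcl2 family, had 87.7, 175 and 212 CPM at 30 dpf against 69.3, 69.7, 66.6 and 84.0 CPM at 25 dpf (log2 fold change 1.13, adjusted p = 0.133). Mdm2, a ubiquitin ligase, had 23.1, 26.8 and 21.2 CPM against 8.03, 6.51, 14.9 and 11.3 CPM (1.21, adjusted p = 0.183), and cdkn1a, the p21 inhibitor of the cell cycle, was lower with 22.7, 25.3 and 28.7 CPM against 28.9, 48.9, 35.8 and 37.5 CPM (-0.56, adjusted p = 0.393). The ages did not overlap in any of these genes. Of all tested genes, 5.8% lay above and 6.03% below in every 30 dpf testis. The gap was narrow for mcl1b, at 87.7 against 84.0 CPM, and for cdkn1a, at 28.7 against 28.9 CPM. These are single genes and give no result for a group of such genes. None was called by edgeR, and DESeq2 called mcl1b higher (adjusted p = 0.0135).

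Muscle and liver genes were far lower at 30 dpf by their list medians, but uneven among the libraries of 25 dpf. Of 20 tested skeletal muscle genes 15 were lower at an unadjusted p under 0.05, with a median of -4.15. Myhz1.1, a fast myosin heavy chain, had 7.23, 3.09 and 6.26 CPM at 30 dpf against 3836, 26.6, 24.0 and 36.6 CPM at 25 dpf. Without 25 dpf testis 1 the list had 4 genes lower and a median of -0.31, where 6.29% of all tested genes were lower. Of 9 tested liver genes 7 were lower, with a median of -2.86. Apoa2, a lipoprotein gene of the liver, had 173, 30.9 and 119 CPM against 490, 2128, 97.6 and 780 CPM. Without 25 dpf testes 1 and 2 there were 3 liver genes lower of 8 tested, with a median of -2.09, where 6.19% of all tested genes were lower. A2ml, of the alpha-2-macroglobulin family of protease inhibitors, separated the ages with 0.201, 0.618 and 1.01 CPM against 10.2, 97.3, 3.40 and 29.2 CPM (log2 fold change -5.79 ± 1.12 SE, adjusted p = 0.0845), and it was highest in the library that held the most liver RNA.

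**Figure D5:**
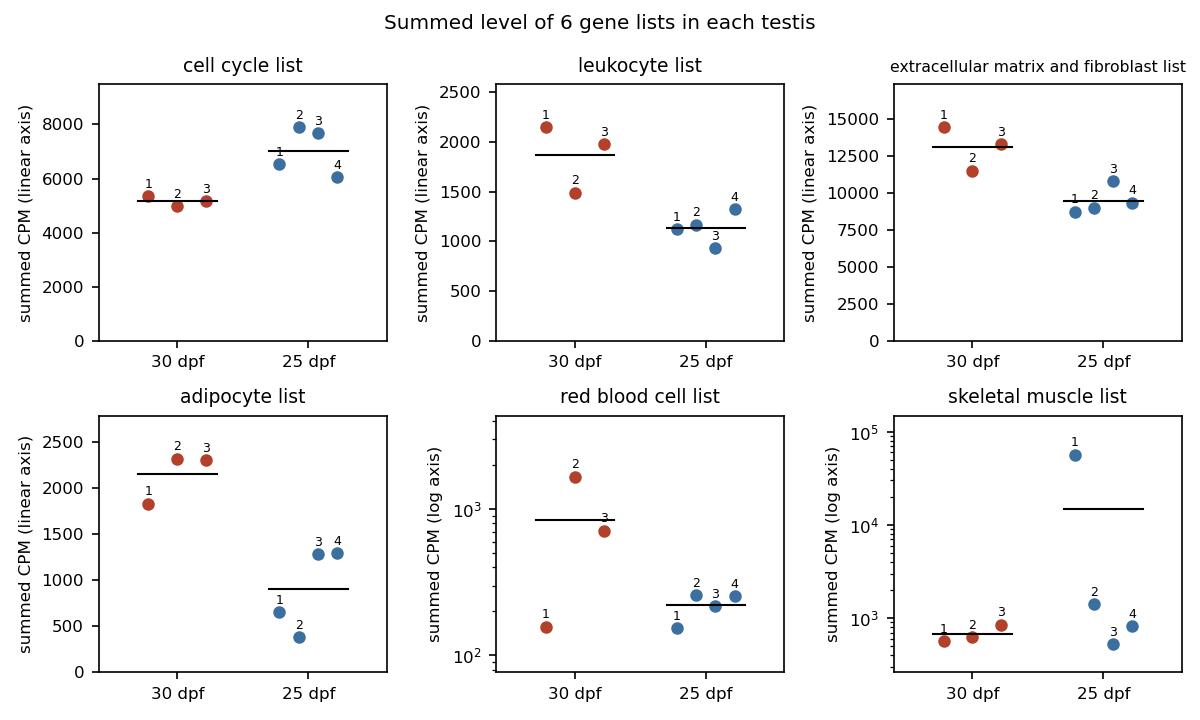
Summed CPM of 6 gene lists in each testis (cell cycle, leukocyte, extracellular matrix and adipocyte on linear axes, red blood cell and skeletal muscle on log axes), 30 dpf left and 25 dpf right, with testis numbers and the mean of each age as a black line. The ages do not overlap in the first 4 lists, lower at 30 dpf for cell cycle and higher for the others; 25 dpf testis 1 stands at 56412 CPM of muscle genes, and 30 dpf testes 2 and 3 at 1664 and 711 CPM of red blood cell genes.

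Without both 25 dpf testes 1 and 2, 12 genes were called higher (0.0638% of 18798 tested) and 3 lower (0.016%), of which si:ch211-106h4.12 and selenop were called with every testis as well. Cyp1a1 was among the 3 lower. Several of the 12 lie close together in GRCz12tu and were high in some gonads and far lower in others. One was nasp, a histone chaperone, with 132, 175 and 140 CPM at 30 dpf against 293, 184, 11.7 and 8.79 CPM at 25 dpf. Without these testes and 30 dpf testis 1, 47 genes were called higher and 19 lower, and 4 of the 8 genes remained called. Si:ch211-106h4.12 was called in each of these comparisons and without any single one of the 3 libraries, with log2 fold changes of 1.78 to 2.13, whereas selenop missed the threshold without 25 dpf testis 1 alone (1.15, adjusted p = 0.0731). The call of si:ch211-106h4.12 was lost without 30 dpf testis 2 or 3, without 25 dpf testis 4, without any 30 dpf ovary, with testes only and with the replicate block, with adjusted p of 0.0603 to 0.118 and log2 fold changes of 2.03 to 2.17. These were 8 of the alternative fits, while selenop lost its call in 13 and the other called genes lost theirs in 15 to 17.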

How the data were processed

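Per the submitters' processing notes and the paper's methods, the authors checked reads (FastQC 0.11.8, MultiQC 0.9), mapped them to GRCz11 with HISAT2 2.0.5, removed duplicates with Picard and counted reads on exons with HTSeq 0.9.1, reverse-stranded. The authors deposited raw whole-number counts of 32520 genes. Whether the libraries kept strand was not given in the sources used here, so overlapping genes cannot be told apart. The count table names gonads by size. Small ones were taken as testes and big ones as ovaries from the paper's description, and column numbers as replicate numbers, which the labels do not state.

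Genes passing filterByExpr on the 4 groups were scaled by TMM and fitted with edgeR 4.0.16 (R 4.3.3, quasi-likelihood, a mean for each group, all 12 gonads, no block), with Benjamini-Hochberg adjustment over all tested genes at 0.05. SEs were derived from the F statistic. Floors of 3 counts cover counting error only. Alternatives were DESeq2 1.42.0, legacy and robust estimation, other scaling factors and filters, testes only, equal depth, a replicate block and each gonad left out. The members, the 29 gene lists and the tests were chosen with earlier results of these data known. Named genes were those called, up to 15 genes in each direction with the smallest p among those that separated the ages, fixed markers with up to 4 members of a list by p, and genes named in the paper. Genes named outside these rules, such as axin2, lef1 and zar1, were chosen after their values were seen. Symbols were found for 29201 identifiers, and genes sharing a symbol are given with their identifier. Of the list members, 43 had no match, and 4 were left out because copies sharing a symbol were in different lists. Gene order comes from GRCz12tu, so no coordinates are given. The tests were tried on simulated counts. Results that need an item withheld for evaluation are not reported here.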

Additional observations from a re-analysis of the deposited data

Results flagged for a closer look

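In groups of 4 samples a value was singled out when its gap to the nearest of the others, as a part of the range, exceeded Dixon's 95% limit, which chance does in about 1 of 20 groups. Only the 25 dpf testes could be examined, since 30 dpf has 3, and 16 of 167 values met the limit.

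Of these, 6 lay in 25 dpf testis 1, the library with the skeletal muscle genes. Their summed level of 56412 CPM had a gap of 0.984 of the range. The fast myosins myhz1.1 at 3836 CPM and myhz1.2 at 2812 CPM had gaps of 0.997 and 0.998, the calcium pump atp2a1 at 3522 CPM had 0.996, the troponin gene tnni2 (ENSDARG00000029069) at 2581 CPM had 0.986, and the share of the 100 most abundant genes, 21.6% of counts, had 0.831.

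A further 7 lay in 25 dpf testis 2. Exocrine pancreas genes summed to 8783 CPM and intestine genes to 567 CPM there, with gaps of 0.854 and 0.892, and the lipoprotein gene apoa1a had 87.8 CPM and a gap of 0.939. Star was at 36.6 CPM in this testis (0.881), si:ch211-121k8.4 at 22.2 CPM (0.86), the piRNA gene tdrd1 at 5.81 CPM (0.868) and figla, an oocyte transcription factor, at 2.82 CPM, below the others (0.942).

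In 25 dpf testis 3, si:dkey-225f5.4 was low at 68.9 CPM (0.88) and dnm1l was high at 219 CPM (0.832). In 25 dpf testis 4, cxcr4 (ENSDARG00000041959) was low at 47.4 CPM (0.896).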

How the results depend on the processing

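The number of genes called between testes of 30 and 25 dpf depended on the tool and on single libraries. It was 8 as reported, 396 with DESeq2 (145 of them lower), 1 with edgeR's legacy estimation, 13 with robust dispersion, 11 with RLE factors, 12 with at least 10 counts in every gonad and 0 with testes only, where 2156 genes had an unadjusted p under 0.05. Leaving out each of the 12 gonads in turn gave 0 to 112 genes called, of which 0 to 31 were lower. Without 25 dpf testes 1 and 2 there were 15, of which 3 lower, and without these and 30 dpf testis 1 there were 66, of which 19 lower. Both were chosen after seeing the data.

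With the replicate block 1 gene was called, none of the 8. Testes with equal numbers had correlations of -0.0015, -0.148 and -0.046 in their deviations from the group means. Those with different numbers had -0.114 to 0.181. So few pairs cannot show whether the numbers pair the testes. In ovaries 1 gene was called, 182 with DESeq2, 0 with legacy estimation, with at least 10 counts in every gonad or with the replicate block, and 0 to 8 with gonads left out. For the difference between the organs 0 genes were called, 102 with DESeq2, 1 each with robust dispersion, no filter or at least 10 counts in every gonad, 4 without 25 dpf testes 1 and 2, and 0 to 16 with gonads left out. Where a 25 dpf ovary is left out, the remaining one is assumed to vary like the other groups.

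Over 133 named genes and their alternatives, 3144 log2 fold changes were recomputed. Of these 116 lost the call with the same sign, 82 gained it with the same sign, 116 of genes called in neither fit moved by more than their SE, and 2830 did none of this. No gene called in either fit had opposite signs. Why DESeq2 called more genes was not tested. On the simulated counts DESeq2 called more unchanged genes than edgeR did, and it also recovered more of the changed genes. The simulation was a single draw that modelled no library standing apart, so it does not decide between the tools here. Both tools used the same counts, so a DESeq2 call is not independent support for a gene that edgeR did not call. The depth limits genes near the floor of 0.528 to 0.651 CPM.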

Other observations

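Some genes were high in some gonads and far lower in others, together with genes nearby. Within 8 genes on either side of nasp, 5 genes, mast2, gpbp1l1, nasp, prpf38a and orc1, were high in the same 5 gonads, namely the 3 testes of 30 dpf and testes 1 and 2 of 25 dpf, while tmem69, which lies between mast2 and gpbp1l1, was not. Nasp, which is called higher without those 2 testes, had 132, 175 and 140 CPM at 30 dpf against 293, 184, 11.7 and 8.79 CPM at 25 dpf. Hsp90b1, a chaperone of the endoplasmic reticulum, had 404, 353 and 458 CPM at 30 dpf against 555, 13.2, 12.7 and 16.7 CPM at 25 dpf and shared its 9 high gonads with parp12b nearby. Tdrd1, a piRNA gene, had 363, 2.89 and 3.23 CPM at 30 dpf against 3.26, 5.81, 3.22 and 2.87 CPM at 25 dpf, and afap1l2 nearby was high in the same gonads. These genes were chosen after their values were seen, the gene order is that of GRCz12tu, and no test was made.

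Of 20 tested retinoic acid genes, 2 were higher and none lower at an unadjusted p under 0.05, with a median of 0.13. Of all tested genes, 7.32% were higher and 7.05% lower at that p. Cyp26b1, an enzyme that degrades retinoic acid, was high in 30 dpf testis 1 alone, with 209, 39.2 and 34.9 CPM at 30 dpf against 53.2, 32.2, 23.6 and 46.8 CPM at 25 dpf. Acta2, smooth muscle actin, had 47.6, 460 and 135 CPM against 17.2, 35.5, 91.9 and 83.4 CPM, with 30 dpf testis 2 the highest. None of 6 tested hormone receptor genes had an unadjusted p under 0.05, and the androgen receptor ar had 31.9, 24.5 and 27.2 CPM against 25.8, 44.7, 20.6 and 24.2 CPM. Genes of BMP, activin and insulin-like ligands included 5 higher and 1 lower of 29 tested at that p. Among them were amh and gsdf, which the Sertoli cell list also holds. Another was id3, a target of BMP signalling, with 55.8, 80.4 and 69.0 CPM against 29.5, 16.4, 49.7 and 43.4 CPM.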
